A study of Mus musculus with 12 samples.

Results

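Expression of 45 genes of fatty acid oxidation, ketone body metabolism and the PPARA response was examined in whole livers of mice with alcohol-associated steatohepatitis (ASH). The genes were chosen by their symbols from a list of mitochondrial and peroxisomal β-oxidation enzymes, ketone enzymes and targets of PPARA, and they were 45 of the 54232 gene IDs in the count table. RNA sequencing covered livers of male C57BL6/J mice labelled as 8-week, of which 5 were pair-fed (PF) and 7 were alcohol-fed (AF), with 24129900 to 30578639 reads on genes per library. Both groups were fed intragastrically with a high-fat liquid diet for 8 weeks. In AF mice the diet carried ethanol, raised to 27 g/kg/day, with a weekly binge of 5 g/kg from the second week, and livers were taken the day after the last binge. PF mice received an isocaloric high-fat liquid diet without ethanol. By the methods, mice were first acclimated on chow or on a solid Western diet rich in cholesterol and saturated fat, and the Western diet was then eaten freely beside the liquid diet. Elsewhere the study calls the solid food chow, so which it was cannot be settled here. The PF values are those of mice on a high-fat liquid diet. The sample titles number the libraries as replicates, and each column of the count table carries a further number of its own, whose meaning is not given. The p-values measure the spread between these liver samples.

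In hepatocytes, fatty acids are bound by FABP1, activated to acyl-CoA by acyl-CoA synthetases, and carried into mitochondria by the carnitine shuttle, where β-oxidation cuts them to acetyl-CoA for respiration or for ketone bodies. Very long and branched chains are shortened in peroxisomes, and CYP4A enzymes of the endoplasmic reticulum oxidize the far (omega) end of the chain. PPARA is the nuclear receptor, activated by fatty acids, that binds DNA with RXR and switches on many of these genes, with PGC-1α, the product of Ppargc1a, as a coactivator.

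The genes did not move in one direction. The receptor and its coactivator, the fatty acid carrier Fabp1 and the synthetase Acsl1 fell in AF livers, whereas cytosolic, mitochondrial and peroxisomal acyl-CoA thioesterases of the Acot cluster and the omega-hydroxylases Cyp4a10 and Cyp4a14 rose. Most enzymes of mitochondrial β-oxidation did not pass the test. Of the 45 genes, all of which passed the filter on low counts, 10 (22.2%) were higher and 8 (17.8%) were lower in AF livers at an edgeR adjusted p under 0.05. Among all 14168 genes tested, 22.0% were higher and 17.8% were lower, so the share of the 45 genes that changed was like that of the transcriptome. The median log2 fold change (log2FC, AF against PF) was 0.06 over the 45 genes and 0.04 over all genes tested. In 4 of the 45 genes (8.89%) every AF liver lay above every PF liver, and in 7 (15.6%) every AF liver lay below, against 8.20% and 9.49% of all genes tested.

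**Figure D1:**
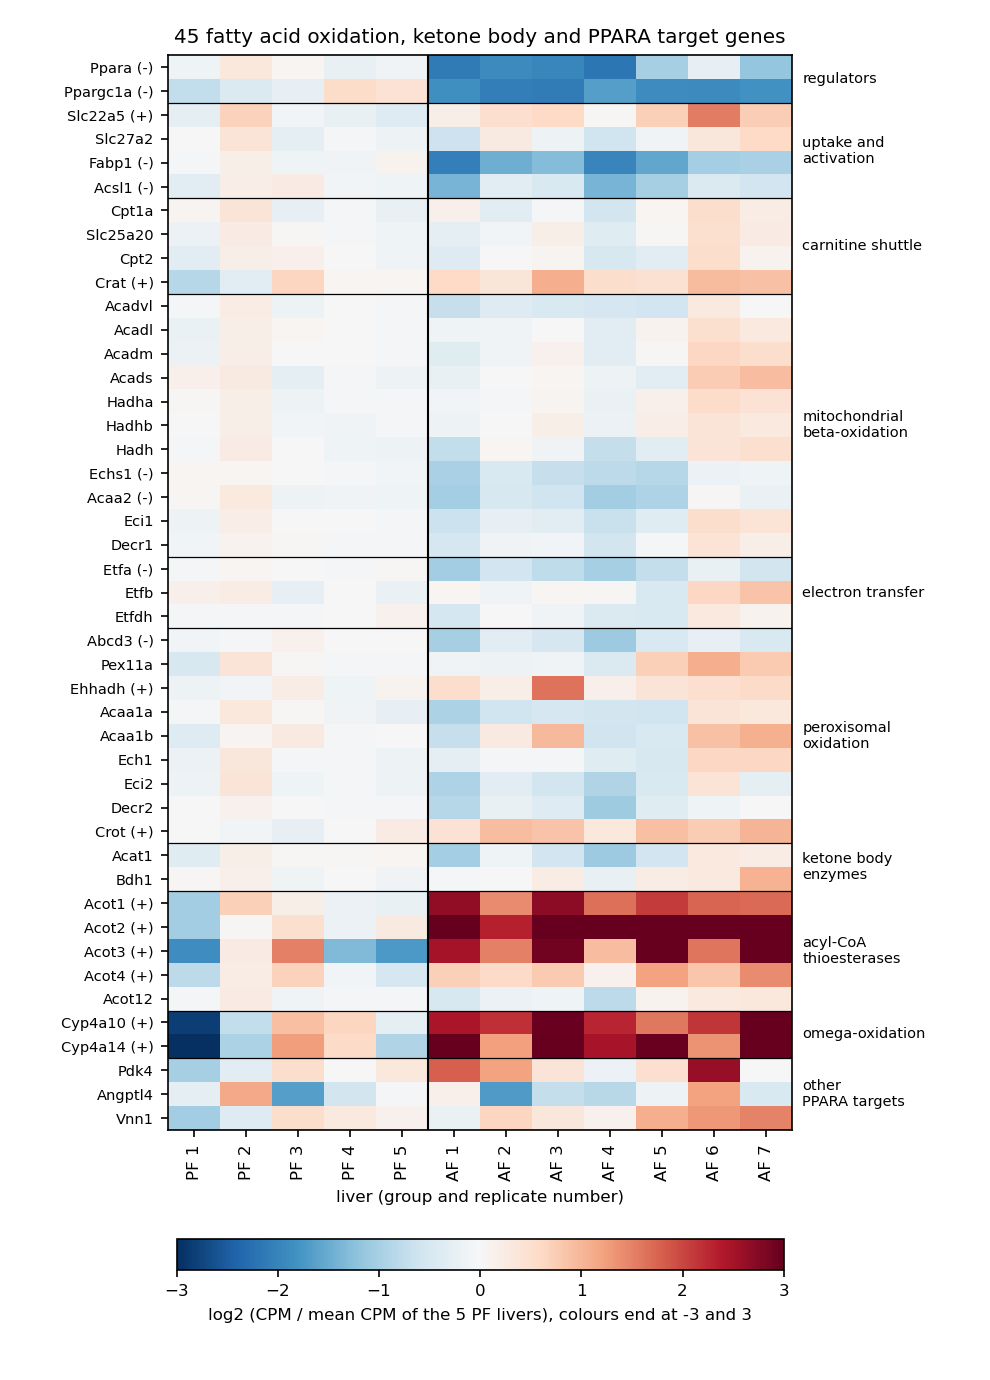
Each row is one gene, grouped by role, and each column one liver, with 5 PF livers left of the vertical line and 7 AF livers right of it. Colour gives log2 of the scaled counts (CPM) over the PF mean, and (+) or (-) after a name marks an edgeR adjusted p under 0.05. The regulators, Fabp1 and Etfa are low in the AF columns, the Acot and Cyp4a rows are high, and most mitochondrial rows are pale, with AF 6 and AF 7 above the PF mean and AF 1 and AF 4 below it.

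CPM are counts divided by the scaled library size, here with TMM factors, the trimmed mean method of edgeR, which sets most genes level between libraries. The TMM factors were 0.832 to 0.901 in PF and 0.880 to 1.36 in AF livers, so the scaling itself differed between the groups. On library totals alone the median log2FC of all genes was 0.40, a shift of 0.36. On that scale 23 of the 45 genes were higher and 5 lower (45.6% and 6.62% of all genes), with a median of 0.39. There the AF livers lay above all PF livers in 11 of the 45 genes and below in 4, against 17.6% and 3.56% of all genes. Ppara, Ppargc1a, Fabp1, Echs1 and Etfa stayed lower and each of the 10 genes called higher stayed higher, whereas Acsl1, Acaa2 and Abcd3 lost their call. The genes that were level under TMM are therefore described relative to the transcriptome and not as amounts per liver.

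**Figure D2:**
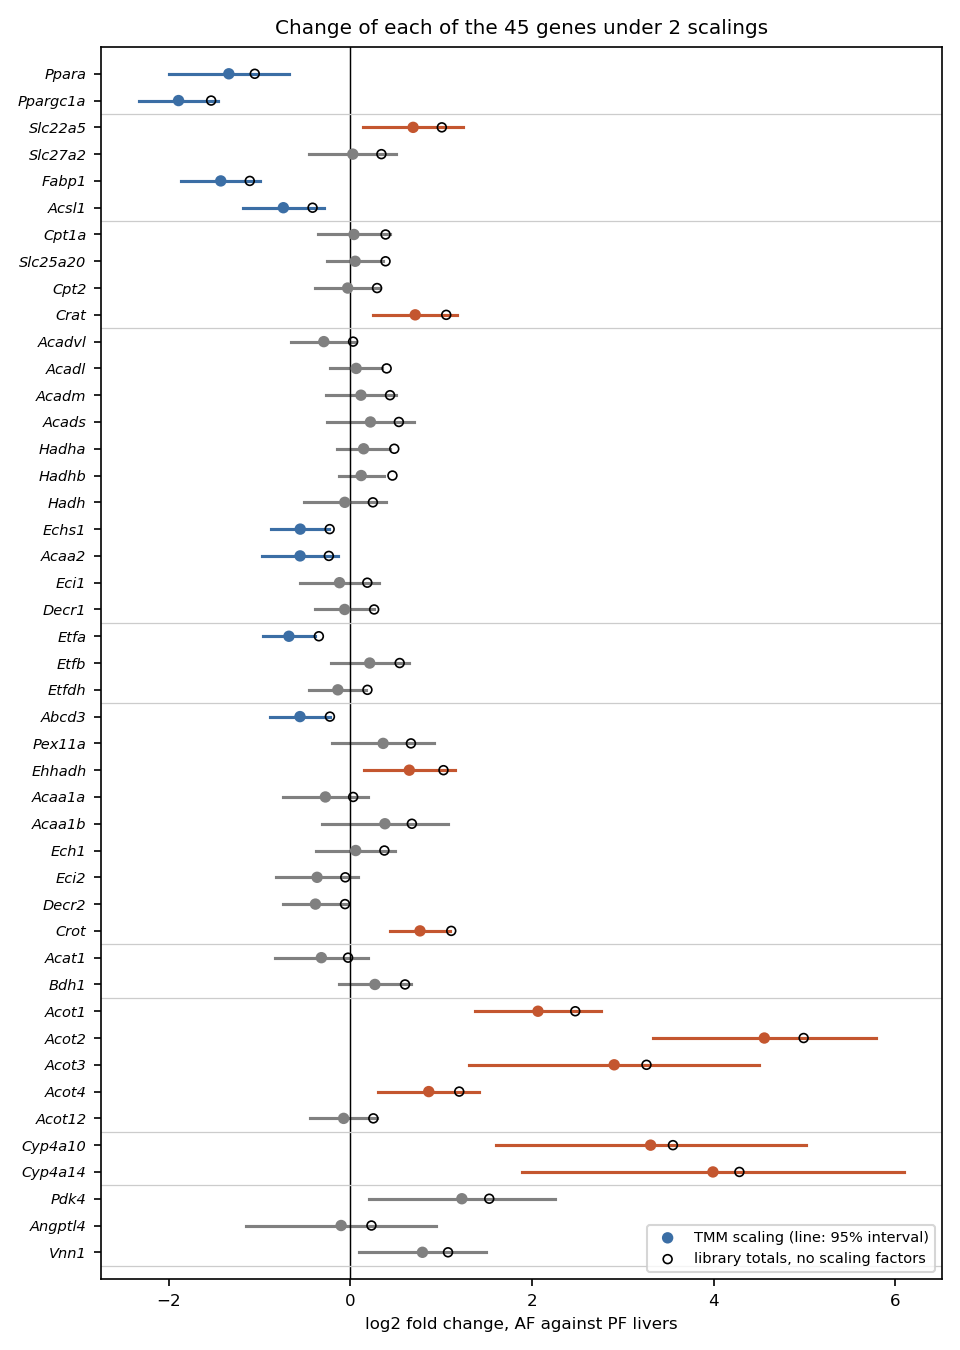
Points give the log2 fold change of each gene, AF (n = 7) against PF (n = 5), with lines for the 95% interval under TMM. Orange marks genes called higher, blue genes called lower and grey genes not called. Open circles give the same value on library totals. The open circles lie to the right of the points throughout, and Ppara, Ppargc1a, Fabp1 and Etfa lie left of 0 on both scales.

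Ppara (ENSMUSG00000022383, GRCm38 chr15:85734983-85802819, plus strand) encodes the receptor itself. Its level was 109, 149, 124, 102 and 111 CPM in the 5 PF livers and ran from 26.6 to 101 with a median of 31.8 in AF livers. Every AF liver lay below every PF liver, but AF replicate 6, at 101 CPM, lay next to the lowest PF liver at 102. The mean fell from 119 ± 18.5 (SD, n = 5) to 47.1 ± 27.0 CPM (n = 7), with a log2FC of -1.34 (95% interval -2.0 to -0.68, edgeR adjusted p = 0.00462), or 2.52-fold lower. Ppargc1a (ENSMUSG00000029167, chr5:51454250-51567726, minus strand), the transcriptional coactivator, was at 11.9, 14.5, 16.8, 29.1 and 26.5 CPM in PF livers and at 4.65 to 6.32 CPM (median 5.33) in AF livers. Here the PF livers spread widely while the AF livers were nearly equal, and the groups did not overlap (log2FC -1.89 ± 0.20 SE, edgeR adjusted p = 3.29e-05). On library totals the log2FC was -1.05 for Ppara and -1.53 for Ppargc1a.

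Of 17 further partners and coregulators of PPARA, 2 were higher and 2 lower, and on library totals 7 were higher and 0 lower. The shares over all genes tested were 22.0% and 17.8% under TMM and 45.6% and 6.62% on library totals. Ppard, a related receptor, was higher (0.59, edgeR adjusted p = 0.0123), as was the corepressor Nrip1 (0.64, edgeR adjusted p = 0.0126). Ncoa2, a coactivator (-0.36), and the deacetylase Sirt1 (-0.68) were lower, although neither was called on library totals. Rxra, the partner with which PPARA binds DNA, did not pass (log2FC -0.22, 95% interval -0.56 to 0.12).

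Among the genes of uptake and activation, Fabp1 (ENSMUSG00000054422, chr6:71199827-71205023, plus strand) changed the most. This gene encodes the main fatty acid binding protein of the hepatocyte and had the highest level per kilobase of exon of the 45 genes in both groups (4906 CPM per kb in PF and 1827 in AF livers). PF livers were at 2597, 3044, 2488, 2518 and 2919 CPM, and AF livers at 653 to 1394 CPM with a median of 989. No liver overlapped, and the mean fell 2.69-fold from 2713 ± 252 to 1010.4 ± 288 CPM (log2FC -1.43 ± 0.20 SE, edgeR adjusted p = 0.00025). Acsl1, the main long-chain acyl-CoA synthetase, was at 529, 763, 794, 635 and 615 CPM in PF and 252 to 528 CPM (median 450) in AF livers. The groups stood apart by less than 1 CPM, between PF replicate 1 and AF replicate 2. The log2FC was -0.74 (95% interval -1.18 to -0.29, edgeR adjusted p = 0.0134), and on library totals it was -0.41 (edgeR adjusted p = 0.0514).

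The 2 other genes of this group were not lower. Slc22a5, the plasma membrane carnitine transporter OCTN2, rose from 18.8 ± 6.45 to 30.4 ± 11.7 CPM (log2FC 0.69, edgeR adjusted p = 0.0451). That call lay near the threshold. It was lost without any one of PF replicates 1, 3, 4 and 5 or AF replicates 2, 3, 5, 6 and 7 (adjusted p up to 0.107). With single libraries left out the log2FC ran from 0.49 to 0.92. Of the 50-base words of its transcripts, 26.1% also occur in Slc22a21. Slc27a2, a very long chain acyl-CoA synthetase and transporter, was at 1008 ± 184 CPM in PF and 1028 ± 328 CPM in AF livers (log2FC 0.03, 95% interval -0.45 to 0.51).

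Because PPARA acts at its DNA element, the promoter sequences in RefSeq (GRCm38.p6, 250 bases before to 50 after each start) were searched for its motif, and 37 of the 45 genes had an entry. The others were Acaa2, Acat1, Angptl4, Crat, Cyp4a10, Cyp4a14, Decr1 and Vnn1. The element is a direct repeat of the hexamer AGGTCA with 1 base between. It was searched on both strands as AGGTCANAGGTCA and, with 1 free letter in each hexamer, as AGGNCANAGGNCA. The hexamer was also searched alone, so that every exact repeat and some relaxed ones contain it. No gene of the 37 held the exact repeat, which occurred in 0.0481% of all genes with an entry (0.0396% of all 32851 promoter windows). Of the 37, Fabp1 alone (2.7%) held the relaxed repeat, found in 0.451% of all genes with an entry (0.381% of windows). The hexamer occurred in 9 of the 37 genes (24.3%, namely Acadm, Acadvl, Acot12, Acot3, Acot4, Cpt1a, Echs1, Fabp1 and Slc27a2) and in 18.1% of all 27025 genes of the table (16.3% of windows). A match is a description of the letters and does not show binding.

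The 150 bases before the gene start are shown for Fabp1, the gene with the relaxed repeat, and for Acot2 and Acot4, neighbours of the thioesterase cluster with the largest and the smallest rise. All are on the plus strand and run 5′ to 3′, at chr6:71199677-71199826, chr12:83987711-83987860 and chr12:84038229-84038378. Capitals mark the repeat in Fabp1 and the hexamer in Acot4, both written as the reverse complement, and Acot2 has no match in this window.
Fabp1: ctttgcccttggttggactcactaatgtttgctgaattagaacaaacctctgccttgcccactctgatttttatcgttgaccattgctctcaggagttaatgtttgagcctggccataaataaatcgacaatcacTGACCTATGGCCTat
Acot2: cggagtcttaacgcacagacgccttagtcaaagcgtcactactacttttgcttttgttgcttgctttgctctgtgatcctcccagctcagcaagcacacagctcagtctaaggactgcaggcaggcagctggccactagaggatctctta
Acot4: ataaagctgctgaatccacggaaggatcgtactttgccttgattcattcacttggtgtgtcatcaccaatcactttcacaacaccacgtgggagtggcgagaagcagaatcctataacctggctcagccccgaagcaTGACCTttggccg

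The carnitine shuttle was mostly level relative to the transcriptome. Cpt1a, the malonyl-CoA sensitive step that sets entry of long-chain fatty acids, was at 373 to 575 CPM in PF and 300 to 640 CPM in AF livers, and the 95% interval of its log2FC ran from -0.35 to 0.44. Slc25a20, the carnitine-acylcarnitine carrier of the inner membrane (log2FC 0.06, 95% interval -0.25 to 0.36), and Cpt2, which reforms acyl-CoA in the matrix (-0.03, 95% interval -0.38 to 0.33), overlapped between the groups, with 4 and 3 of 7 AF livers outside the PF range on either side of it. On library totals Slc25a20 was called higher at 0.39 (edgeR adjusted p = 0.0097). Crat, the carnitine acetyltransferase of short chains, rose from 25.7 ± 9.57 to 42.2 ± 8.19 CPM (log2FC 0.72, edgeR adjusted p = 0.0184). Its PF livers were at 14.2, 20.5, 40.0, 26.8 and 26.7 CPM and its AF livers at 32.9 to 54.4 (median 38.6), so that PF replicate 3 lay within the AF range. Without PF replicate 2 the adjusted p was 0.0516. A gene on the opposite strand overlaps Crat with 2548 counts against its 12211, and the strand setting of the counting is not given in the sources used here.

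Of the 11 mitochondrial β-oxidation genes, 2 were lower and none was higher, against 17.8% and 22.0% of all genes tested. Echs1, the short-chain enoyl-CoA hydratase, was at 248, 249, 238, 227 and 226 CPM in PF livers and at 121 to 218 CPM (median 147) in AF livers. The groups did not overlap (log2FC -0.55, 95% interval -0.87 to -0.23, edgeR adjusted p = 0.0111), and on library totals the adjusted p was 0.0493. Echs1 shares its place with Paox on the opposite strand, which holds 7757 counts against 61742. Acaa2, the thiolase that closes each round of the cycle, was at 467 to 640 CPM in PF and 251 to 537 CPM in AF livers, with AF replicate 6 inside the PF range (log2FC -0.55, edgeR adjusted p = 0.0374). The Acaa2 call was lost without any one of 9 libraries, namely the 5 PF livers and AF replicates 1, 3, 4 and 5, with an adjusted p up to 0.0999.

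The other 9 did not pass, with log2FC from -0.29 (Acadvl) to 0.22 (Acads). The 3 chain-length specific dehydrogenases Acadl (0.07, 95% interval -0.22 to 0.35), Acadm (0.12, -0.26 to 0.50) and Acads (0.22, -0.25 to 0.70) had intervals on both sides of 0. Hadha and Hadhb, the subunits of the trifunctional protein, had intervals of -0.15 to 0.44 and -0.13 to 0.37. Acadvl, the very long chain dehydrogenase, was called lower with the sample quality weights of limma-voom (limma adjusted p = 0.0111) and without AF replicate 6 (edgeR adjusted p = 0.0179). Hadh, the medium- and short-chain dehydrogenase (-0.06), and the auxiliary enzymes for unsaturated chains Eci1 (-0.12) and Decr1 (-0.06) lay close to 0. On library totals Acadl, Acadm, Acads, Hadha, Hadhb and Decr1 were called higher at log2FC 0.26 to 0.54, against the median of 0.40 over all genes on that scale, and Cpt2, Acadvl, Hadh, Eci1, Decr1, Etfdh, Acaa1a, Acot12 and Angptl4 changed from below 0 to above 0.

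Electron transfer from the dehydrogenases to the respiratory chain runs through ETF, a dimer of ETFA and ETFB, and its oxidoreductase ETFDH. Etfa (ENSMUSG00000032314, chr9:55454508-55512243, minus strand) was at 368, 397, 376, 368 and 388 CPM in PF livers, the tightest set relative to its mean among the genes that fell. AF livers were at 184 to 324 CPM (median 229), all below the PF livers, and the mean fell 1.60-fold from 379 ± 12.8 to 238 ± 47.6 CPM (log2FC -0.67 ± 0.13 SE, edgeR adjusted p = 0.00196). The call held on library totals (log2FC -0.34, edgeR adjusted p = 0.00436). Etfb (log2FC 0.21, 95% interval -0.22 to 0.65) and Etfdh (-0.14, -0.45 to 0.18) did not pass. On library totals Etfb was called higher at 0.54 (edgeR adjusted p = 0.0141), and 43.8% of the 50-base words of Etfb also occur in Gm45233.

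**Figure D3:**
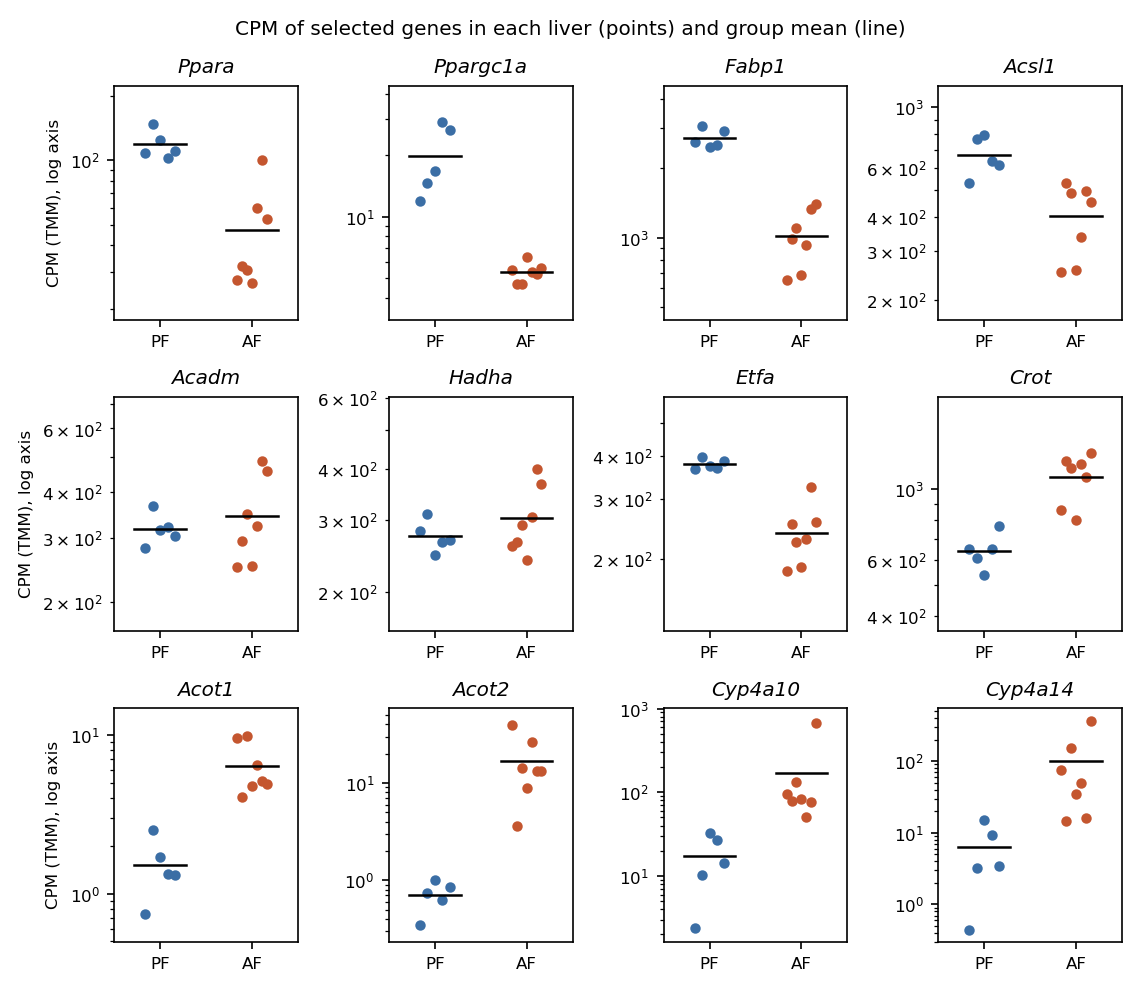
Points give the TMM-scaled CPM of 12 genes in the 5 PF (blue) and 7 AF (orange) livers, on log axes that differ between panels, and horizontal lines give group means. The groups stand apart for Ppara, Ppargc1a, Fabp1, Acsl1, Etfa, Crot, Acot1, Acot2 and Cyp4a10, and overlap for Acadm, Hadha and Cyp4a14.

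The livers of the AF group differed from each other along the mitochondrial genes. The median log2 ratio of the 11 β-oxidation genes to their PF means was -0.50 in AF replicate 1, -0.51 in AF replicate 4 and -0.31 in AF replicate 5. In AF replicates 6 and 7 it was 0.40 and 0.30, and in the PF livers it ran from -0.05 to 0.19. On library totals the AF range narrowed to between -0.0019 and 0.45. The hepatocyte markers, divided by the same TMM factors, put the same AF livers at both ends. Of 6 hepatocyte markers, none of them at 0, 2 were lower in AF livers, against 17.8% of all genes tested. Their summed level was 99238 to 140375 CPM in PF and 53671 to 103852 CPM in AF livers. Among AF livers it was lowest in replicates 4, 1 and 5 and highest in 7 and 6. On library totals that sum was 89396 to 116768 CPM in PF and 65981 to 99684 CPM in AF livers, still lowest in AF replicate 4 and highest in 7, but with AF replicate 3 (91623) above 6 (91104).

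The sum of 6 pericentral hepatocyte markers was 12618 to 15855 CPM in PF and 1206 to 10249 CPM in AF livers. AF replicates 2, 6 and 7 were at 8368, 10249 and 10245 CPM, and AF replicates 1, 3, 4 and 5 at 1206 to 2438 CPM. Of the 6 pericentral markers, Glul and Lgr5 were lower, and 4 had every AF liver below every PF liver. For these and the marker counts below, the shares over all genes tested were 22.0% higher and 17.8% lower, with 9.49% having every AF liver below. On library totals the shares were 45.6% higher and 6.62% lower. Cyp1a2 (log2FC 0.75) and Axin2 (0.16) lay above 0 without passing. On library totals Cyp1a2 was called higher (1.01, edgeR adjusted p = 0.00883). Cyp2e1 (log2FC -1.62, edgeR adjusted p = 0.050) and Oat (-1.42, edgeR adjusted p = 0.058) missed the threshold and passed with DESeq2 and limma-voom, among others. The sum of 6 periportal markers was 4599 to 7777 and 2864 to 6513 CPM, and on library totals 4143 to 6469 and 3288 to 6557 CPM. Of the 6, 1 was higher, namely Hsd17b13 (log2FC 0.92, edgeR adjusted p = 0.00128). The others did not pass, at log2FC from -0.42 (Hal) to -0.86 (Pck1). Markers of several other cell types were higher in AF livers, namely 5 of 6 stellate cell and fibroblast markers (165 to 408 CPM in PF, 360 to 972 in AF livers). So were 4 of 5 Kupffer cell markers (573 to 778 and 776 to 2376) and 4 of 4 bile duct markers (3.16 to 4.96 and 4.95 to 41.5). The 6 monocyte and recruited macrophage markers (70.1 to 290 and 138 to 1562) were mixed. Trem2, Cd9 and Gpnmb were higher. Ly6c2 (log2FC -0.84), Ccr2 (0.46) and Spp1 (1.68) did not pass, and Spp1 was called higher on library totals (edgeR adjusted p = 0.0255). Of 3 sinusoidal endothelium markers 1 was higher (72.2 to 142 and 92.9 to 157). The 3 red blood cell markers went both ways (126 to 174 and 24.4 to 157). Alas2, which held most of their sum in PF livers (mean 124 of 149 CPM), was lower (log2FC -1.70, edgeR adjusted p = 0.0198). Hbb-bs (0.81) and Hba-a1 (1.02) did not pass and were called higher on library totals (edgeR adjusted p = 0.0145 and 0.0186). None of 5 neutrophil markers (50.4 to 736, highest in PF replicate 1, and 42.6 to 162) and none of 5 lymphocyte markers (2.36 to 6.33 and 1.40 to 3.50) passed the test. The 4 adipocyte markers held too few counts to be tested and summed to 6.04 CPM in AF replicate 1 and to at most 0.246 CPM in every other liver. Clec4f of the Kupffer list lost its call without any one of 11 libraries, AF replicate 1 being the exception (edgeR adjusted p up to 0.108), and under 5 alternatives, and with limma-voom the bile duct markers Krt19, Epcam and Sox9 lost theirs (limma adjusted p up to 0.119). No marker of these lists had 0 counts over the 12 libraries, and the sums were highest in AF replicate 1 for the stellate, macrophage, bile duct and adipocyte lists. The part of the cell makeup and of the TMM factor in the values above was not tested, and in whole liver fewer cells of a type and less RNA per cell cannot be told apart.

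**Figure D4:**
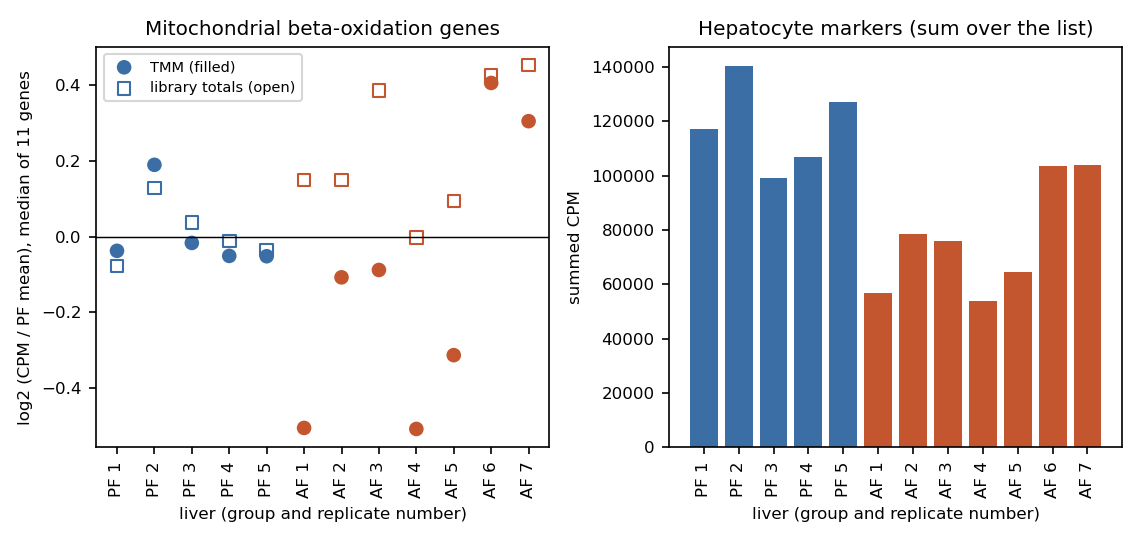
Left, the median over the 11 mitochondrial β-oxidation genes of log2 (CPM over the PF mean) in each liver, with TMM scaling (filled) and on library totals (open). Right, the summed CPM of 6 hepatocyte markers. Under TMM the AF livers run from -0.51 (AF 4) to 0.40 (AF 6), and the hepatocyte sum is lowest in AF 4 and AF 1 and highest among the AF livers in AF 6 and AF 7.

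Of the 9 peroxisomal genes, 2 were higher and 1 lower, counts like the shares over all genes tested (22.0% and 17.8%). Crot (ENSMUSG00000003623, chr5:8966033-8997324, minus strand), the carnitine octanoyltransferase that prepares shortened chains for export to mitochondria, was at 649, 608, 538, 651 and 765 CPM in PF and 804 to 1300 CPM (median 1164) in AF livers. Every AF liver lay above every PF liver, and the mean rose 1.70-fold from 642 ± 82.8 to 1094 ± 189 CPM (log2FC 0.77, 95% interval 0.44 to 1.10, edgeR adjusted p = 0.00223). Per kilobase of exon it held rank 6 of the 45 genes in PF livers and rank 4 in AF livers. Ehhadh, the peroxisomal bifunctional enzyme and a classical PPARA target, was at 169, 176, 217, 171 and 203 CPM in PF livers and at 207 to 580 CPM (median 265) in AF livers, with 5 of 7 AF livers above every PF liver. Its call (log2FC 0.65, edgeR adjusted p = 0.0404) was lost without any one PF liver (adjusted p up to 0.0864), and AF replicate 3, at 580 CPM, was over the next AF liver at 277. Without AF replicate 3 the log2FC was 0.40 and the call held.

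Abcd3, the membrane transporter PMP70 that brings acyl-CoA into the peroxisome, was at 667, 694, 780, 698 and 700 CPM in PF livers and at 334 to 601 CPM (median 517) in AF livers. The groups did not overlap (log2FC -0.55, 95% interval -0.88 to -0.22, edgeR adjusted p = 0.0122), but on library totals the log2FC was -0.22 (edgeR adjusted p = 0.112). Pex11a, which takes part in peroxisome division (0.36), the thiolases Acaa1a (-0.27) and Acaa1b (0.38), and Ech1 (0.06), Eci2 (-0.36) and Decr2 (-0.38), which handle double bonds, did not pass. On library totals Pex11a and Ech1 were called higher at 0.67 and 0.38 (edgeR adjusted p = 0.0183 and 0.043). Acaa1a, Eci2 and Decr2 were called lower with the sample quality weights of limma-voom (limma adjusted p = 0.0352, 0.0134 and 0.0136). Decr2 was also called with DESeq2 (adjusted p = 0.0499) and without AF replicate 7 (edgeR adjusted p = 0.0364), and Eci2 without AF replicate 6 (edgeR adjusted p = 0.0108). Acaa1a and Acaa1b share sequence (30.5% of the 50-base words of Acaa1b occur in Acaa1a), and an opposite gene with 6572 counts overlaps Acaa1a (19576 counts), so their values are uncertain. Of 15 peroxisome biogenesis genes, 4 were lower (Pex3, Pex5, Pex6 and Pex7, at -0.51 to -0.66) and none was higher, against 17.8% and 22.0% of all genes. Of these, Pex7 alone was called on library totals, where 2 others of the 15 were higher, against 6.62% lower and 45.6% higher among all genes.

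Neither ketone body gene of the list passed the test. Acat1, the mitochondrial acetoacetyl-CoA thiolase, was at 286 to 410 CPM in PF and 172 to 446 CPM in AF livers (log2FC -0.32, 95% interval -0.83 to 0.19), and it was called lower with the sample quality weights of limma-voom (limma adjusted p = 0.0223). Bdh1, which interconverts acetoacetate and β-hydroxybutyrate, was at 136 to 164 and 126 to 303 CPM (log2FC 0.27, 95% interval -0.13 to 0.67). On library totals Bdh1 was called higher at 0.60. Bdh2, a cytosolic dehydrogenase, fell from 10.6 ± 2.35 to 2.88 ± 0.992 CPM (log2FC -1.88, edgeR adjusted p = 0.000144), with no overlap.

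The acyl-CoA thioesterases, which release free fatty acid and coenzyme A from acyl-CoA, held the largest rise. Acot2 (ENSMUSG00000021226, chr12:83987861-83993873, plus strand), the mitochondrial enzyme, was at 0.344, 0.732, 1.00, 0.629 and 0.860 CPM in PF livers, from 82 counts in all. In AF livers it was at 3.62 to 39.3 CPM (median 13.3), from 4018 counts, and every AF liver lay above every PF liver. The mean rose 23.6-fold by the fitted value, from 0.713 ± 0.249 to 17 ± 12 CPM (log2FC 4.56, 95% interval 3.33 to 5.79, edgeR adjusted p = 0.000105). With the sample quality weights of limma-voom the log2FC was 3.95. Acot1 (ENSMUSG00000072949, chr12:84009490-84018371), its cytosolic neighbour, was at 0.738 to 2.52 CPM in PF and 4.04 to 9.84 CPM in AF livers, again without overlap (log2FC 2.07, edgeR adjusted p = 0.000444). Acot2 and Acot1 share 24.5% of the 50-base words of Acot2, so reads may be split between them.

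Acot3 and Acot4, peroxisomal enzymes of the same cluster, also rose. Acot3 was at 0.246, 1.05, 2.54, 0.354 and 0.271 CPM in PF and 1.69 to 18.9 CPM (median 5.05) in AF livers, where PF replicate 3 lay above AF replicates 2 and 4 (log2FC 2.91, edgeR adjusted p = 0.00816). Its PF values rest on 104 counts, and the log2FC was 3.80 without PF replicate 3 and 2.40 without AF replicate 5. Acot4, which acts on dicarboxylic chains, had the highest level per kilobase of exon of the 4 in both groups (4.95 CPM per kb in PF and 9.01 in AF livers) and rose from 33.0 ± 13.3 to 60.2 ± 17.4 CPM (log2FC 0.86, edgeR adjusted p = 0.0179). Acot12, a cytosolic acetyl-CoA hydrolase encoded on another chromosome, did not pass (log2FC -0.07, 95% interval -0.44 to 0.30). The further Acot genes of the cluster on chromosome 12 were Acot6, which rose from 1.17 ± 0.409 to 7.03 ± 2.57 CPM (log2FC 2.58, edgeR adjusted p = 6.49e-05), and Acot5, which held 0 counts in PF and 6 in AF livers and was not tested.

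The omega-hydroxylases lie in a cluster on chromosome 4. Cyp4a10 (ENSMUSG00000066072, chr4:115518264-115533649, plus strand) was at 2.41, 10.3, 32.2, 26.8 and 14.2 CPM in PF livers and at 51.2 to 676 CPM (median 83.7) in AF livers. No liver overlapped, and AF replicate 7, at 676 CPM, stood far above the next at 134. The log2FC was 3.31 (95% interval 1.60 to 5.01, edgeR adjusted p = 0.00587), and it was 2.32 without AF replicate 7. Cyp4a14 (ENSMUSG00000028715, chr4:115486200-115496142, minus strand) was at 0.443, 3.25, 15.1, 9.40 and 3.39 CPM in PF and 14.7 to 367 CPM (median 49.6) in AF livers. Only PF replicate 3 and AF replicate 2 overlapped (log2FC 3.99, 95% interval 1.89 to 6.09, edgeR adjusted p = 0.0065), and the highest AF liver was again replicate 7, without which the log2FC was 3.17, whereas it was 4.60 without PF replicate 3. With the sample quality weights of limma-voom the log2FC was 2.65 for Cyp4a10 and 3.31 for Cyp4a14, and both kept their call.

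Their neighbours did not all move with them. Cyp4a31, which follows Cyp4a10 in the cluster, rose from 1.27 ± 0.310 to 25.4 ± 18.9 CPM (log2FC 4.32, edgeR adjusted p = 0.000256), and Cyp4a32 rose by less (0.71, edgeR adjusted p = 0.0304), a call lost without any one of 6 libraries (PF replicates 1, 3, 4 and 5 and AF replicates 2 and 7) and with limma-voom with or without sample quality weights (limma adjusted p up to 0.0843). On the other side of Cyp4a14, Cyp4a12a fell from 140 ± 61.1 to 9.14 ± 18.7 CPM (log2FC -3.95, edgeR adjusted p = 0.0203) and Cyp4a12b from 47.9 ± 15.3 to 2.69 ± 6.07 CPM (-4.20, edgeR adjusted p = 0.00674). In both, AF replicate 6 was the highest AF liver, at 50.5 and 16.4 CPM, and without it the log2FC was -6.03 and -6.94. With limma-voom the log2FC was -7.06 and -6.71, and with its sample quality weights -7.73 and -7.53. Sequence is shared between Cyp4a12a and Cyp4a12b (48.9% of the 50-base words of Cyp4a12a) and between Cyp4a10 and Cyp4a32 (24.5% of those of Cyp4a10), so the split within each pair is uncertain.

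**Figure D5:**
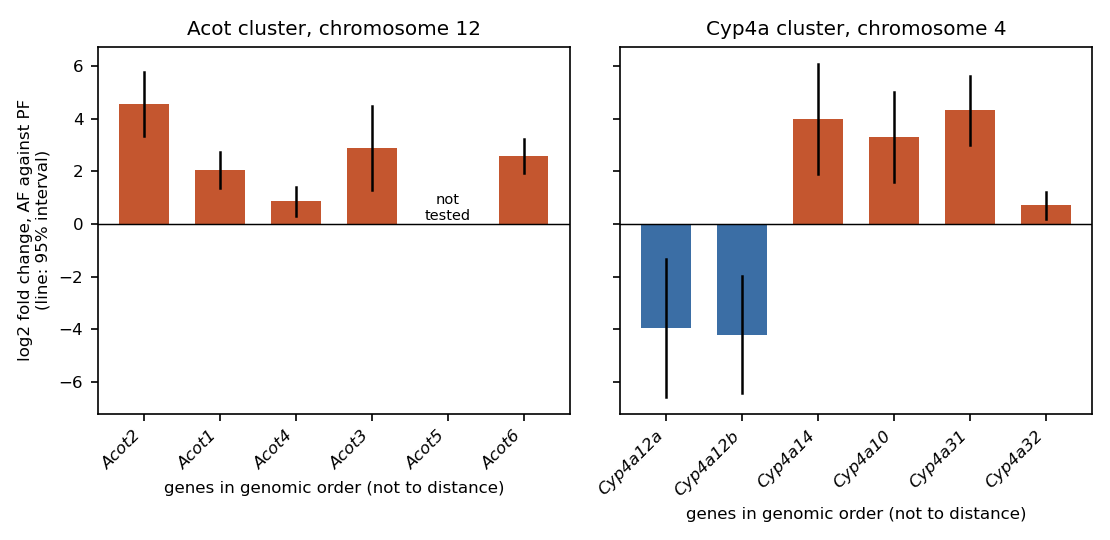
Bars give the log2 fold change, AF (n = 7) against PF (n = 5), with lines for the 95% interval, of the genes of both clusters in their order along the chromosome, not to distance. All 5 tested Acot genes lie above 0, from 0.86 (Acot4) to 4.56 (Acot2), whereas Cyp4a12a and Cyp4a12b lie near -4 and the other 4 Cyp4a genes above 0.

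The remaining 3 PPARA targets of the list did not pass. Pdk4, which blocks pyruvate dehydrogenase when fat is burned, was at 4.13 to 11.9 CPM in PF and 7.29 to 49.9 CPM in AF livers (log2FC 1.23, 95% interval 0.20 to 2.26, edgeR adjusted p = 0.0547). With the sample quality weights of limma-voom the log2FC of Pdk4 was 0.51 (limma adjusted p = 0.229). Vnn1, the pantetheinase, was at 32.9 to 98.7 and 59.0 to 192 CPM (0.80, 95% interval 0.10 to 1.49, edgeR adjusted p = 0.0653). Both passed with DESeq2, with upper-quartile factors and on library totals, and over these settings and the other tools the adjusted p ran from 0.0138 to 0.229 for Pdk4 and from 0.0073 to 0.203 for Vnn1. Angptl4, an inhibitor of lipoprotein lipase, spread widely in both groups (23.8 to 167 and 23.4 to 173 CPM, log2FC -0.10, 95% interval -1.15 to 0.95).

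Genes of the same pathways outside the list also went both ways. Of 17 further PPARA targets tested, 7 were higher, including the hepatokine Fgf21 (0.560 ± 0.498 to 10.3 ± 9.54 CPM, log2FC 4.22, or 4.90 without PF replicate 2 and 3.63 without AF replicate 1), the lipid droplet proteins Cidec (4.66, or 3.58 with the sample quality weights of limma-voom) and Plin2 (0.95), and the fatty acid transporter Cd36 (112 ± 56.4 to 428 ± 43.9 CPM; 1.93), and 4 were lower, including the phosphatidate phosphatases Lpin1 (-3.17) and Lpin2 (-1.19). On library totals 10 were higher and 3 lower. Of 53 further genes of fatty acid oxidation and ketone metabolism tested, 10 were higher and 16 lower under TMM, and 22 were higher and 14 lower on library totals. Among all genes tested the shares were 22.0% and 17.8% under TMM and 45.6% and 6.62% on library totals. The peroxisomal coenzyme A diphosphatase Nudt7 fell from 832 ± 104 to 96.6 ± 50.5 CPM (log2FC -3.11, edgeR adjusted p = 7.96e-06), and Dbi, the acyl-CoA binding protein, from 931 ± 85.2 to 297 ± 56.0 CPM (-1.65, edgeR adjusted p = 5.82e-06). Among the genes that rose, Acot9 went from 7.36 ± 1.42 to 17.5 ± 3.94 CPM (log2FC 1.25, edgeR adjusted p = 0.000256). Acad12 went from 8.31 ± 1.00 to 16.3 ± 3.31 CPM (0.97, edgeR adjusted p = 0.000366).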

How the data were processed

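Liver RNA was isolated by the authors in TRIzol, and poly(A) RNA was selected and made into libraries with a stranded kit. Per the labels, reads were processed with FastQC 0.10.1, TopHat2 2.0.13 and HTSeq 0.10.0 on GRCm38, and the authors deposited raw read counts per Ensembl gene for 12 libraries. The annotation and strand setting of the counting are not given in the sources used here. GENCODE release M21 gave a symbol for 54165 of the 54232 IDs. The Cuffdiff2 test of the study needs alignments and was not repeated.

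Counts were filtered with filterByExpr by group (14168 genes left), scaled with TMM and tested for AF against PF with the quasi-likelihood test of edgeR 4.0.16 (R 4.3.3) without covariates, with Benjamini-Hochberg adjustment over all genes tested and a threshold of 0.05. CPM are means ± SD over livers, intervals are at 95%, and levels between genes were compared per kilobase of exon. All 45 genes held at least 1630 counts in total. The PF values of Acot2, Acot3 and Acot1 rest on 82, 104 and 174 counts. No 2 livers of a group agreed within sampling noise (the squared difference averaged over genes was at least 21.2 times that of counting alone). The 45 genes were grouped by role, all are accounted for, and values per liver are given for the largest changes of each role. The genes and all lists were chosen with earlier results of these data known, and the motifs after the values were seen. One symbol of the marker lists was not found, and some genes of the further lists are not reported here.

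Alternatives were DESeq2 1.42.0, limma-voom (limma 3.58.1) with and without sample quality weights, RLE and upper-quartile factors, library totals, a filter of 1 count in any library, a filter of a mean of 10 counts, the replicate number as a block, and each library left out in turn. On simulated counts for 14000 genes, edgeR recovered 60 of 87 genes changed by a log2FC of 1 and 94 of 113 changed by 1.5, with 6 false calls. The simulation changed only these genes, whereas 22.0% and 17.8% of genes were called higher and lower in the livers. It also gave both groups the same spread and no difference in scaling, so its rates may not hold for these data.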

Additional observations from a re-analysis of the deposited data

Results flagged for a closer look

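Single livers stood apart from the others of their group in 12 of 90 groups of values (45 genes in PF and in AF livers), by the gap to the nearest liver over the range of the group, where about 4.5 would be given by chance. Cyp4a10 and Cyp4a14 were highest in AF replicate 7, at 676 and 367 CPM against 134 and 153 in the next liver, and Bdh1 was highest in the same liver, at 303 against 182 CPM. AF replicate 6 stood apart for Slc22a5 (54.9 against 31.2 CPM), Eci2 (267 against 166 CPM) and Angptl4 (173 against 84.2 CPM). AF replicate 3 held 580 CPM of Ehhadh against 277 in the next liver. Among PF livers, replicate 2 was highest for Slc22a5 (30.2 against 17.8 CPM), Ech1 (189 against 148 CPM), Eci2 (264 against 194 CPM) and Acot12 (138 against 114 CPM), and replicate 1 was lowest for Acat1 (286 against 374 CPM). PF replicate 2 also held the highest sum of hepatocyte markers, at 140375 CPM. Among the genes that passed the test, the log2FC without the liver that stood apart was 2.32 for Cyp4a10, 3.17 for Cyp4a14 and 0.40 for Ehhadh, and for Slc22a5 it was 0.92 without PF replicate 2 and 0.49 without AF replicate 6, where its call was lost.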

How the results depend on the processing

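Over the alternatives that kept all libraries, the count of the 45 genes that were higher lay between 9 and 23 and the count that were lower between 5 and 14. The high count of 23 and the low count of 5 came from library totals, where 6458 of all genes were higher and 938 lower and the median over the 45 genes was 0.39. The count of lower genes was 13 with sample quality weights, where 25% of all genes were lower, and 14 with a replicate block, where 20.8% were. With the block, lower calls were added for Acadvl, Eci1, Acaa1a, Eci2, Decr2 and Acat1 (edgeR adjusted p 0.00343 to 0.0104). PF livers are numbered 1 to 5 only, so the block also takes AF replicates 6 and 7 out of the comparison. These were the highest AF livers on the mitochondrial β-oxidation genes (median log2 ratio 0.40 and 0.30 under TMM), and the effects of blocking and of their removal were not tested apart. Same-numbered PF and AF livers deviated little together (correlations -0.07 to 0.12, and 1 of 5 numbers correlated best with its own). These low correlations over all genes gave no sign of pairs by number, but they cannot exclude a pairing. With single libraries left out, the counts were 8 to 11 higher and 7 to 10 lower, those over all genes 2519 to 3574 and 2119 to 2923, the median -0.03 to 0.15, and genes without overlap 10 to 15 (11 with all libraries).

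No gene that passed the test changed direction. Some genes that did not pass, at log2FC from -0.29 to 0.38, changed sign. Slc27a2 was -0.0052 with limma-voom. With sample quality weights Slc27a2 was -0.054, Cpt1a -0.071, Slc25a20 -0.029, Acadl -0.058, Acadm -0.021 and Ech1 -0.058. Cpt2 was 0.024 with upper-quartile factors. On library totals Cpt2 was 0.30, Acadvl 0.032, Hadh 0.25, Eci1 0.19, Decr1 0.26, Etfdh 0.19, Acaa1a 0.033, Acot12 0.25 and Angptl4 0.23. With the replicate block Slc27a2 was -0.22, Cpt1a -0.13, Slc25a20 -0.099, Acadl -0.087, Acadm -0.12, Acads -0.12, Hadha -0.015, Etfb -0.073, Acaa1b -0.085 and Ech1 -0.24. Leaving out single libraries gave -0.092 to 0.14 for Slc27a2, -0.059 to 0.15 for Cpt1a, -0.032 to 0.12 for Slc25a20, -0.15 to 0.037 for Cpt2, -0.015 to 0.12 for Acadl, -0.17 to 0.032 for Hadh, -0.16 to 0.0086 for Decr1, -0.058 to 0.15 for Ech1, -0.15 to 0.021 for Acot12 and -0.50 to 0.42 for Angptl4. The cause was not tested. With the replicate block the log2FC was 2.61 for Cyp4a10 and 3.40 for Cyp4a14. Slc22a5 also lost its call with RLE factors and with the replicate block, and Acaa2 with the filter at 1 count. Depth limits the PF values of Acot2, Acot3 and Acot1, with 82, 104 and 174 counts in 5 libraries. A gene that missed the threshold is not shown to be equal in both groups.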
